A study of Mus musculus with 4 samples.

Results

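The insulin-like growth factor (IGF) genes examined here were both ligands (Igf1 and Igf2), the receptor Igf1r and the binding proteins Igfbp2, Igfbp3, Igfbp4, Igfbp5, Igfbp6 and Igfbp7, in mouse colonic organoid cultures. They were found by symbol in the deposited gene table, where each of the 9 symbols matched a row among 30360 genes. RNA was counted as unique molecular identifiers (UMIs) in 6155 single cells of 4 libraries made with the 10x Chromium 3′ method. The cultures came from the distal colon of wildtype (C57BL/6) mice and of Tnfr2-/- mice, in which Tnfrsf1b, the gene of TNF receptor 2, is deleted in the whole body, and the donors were 16 weeks old per the labels. Of each genotype 1 culture was left untreated and 1 was treated with TNF (tumor necrosis factor, 20 ng/ml). Treatment started 1 day after passage 5 and ended on day 6, and every culture was harvested on day 7, dissociated and depleted of apoptotic cells. Each group of genotype and treatment had 1 library. Sets of 4 values are given for wildtype without and with TNF and then for Tnfr2-/- without and with TNF.

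In the IGF system, secreted IGF1 and IGF2 activate the receptor tyrosine kinase IGF1R, whose signal runs through IRS adaptors, PI3-kinase and AKT and favours growth and survival of many cell types, those of the intestinal epithelium included. The IGF binding proteins hold the ligands outside the cell, where they can prolong their life or keep them from the receptor, and several also bind matrix. Proteases such as PAPP-A, encoded by Pappa, cut IGFBP4 and release the ligand, and the stanniocalcins STC1 and STC2 block that protease.

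Although the cultures were grown as epithelial organoids, the deposited annotation divides 6120 of the cells into 7 epithelial and 4 mesenchymal classes. Mesenchymal cells numbered 1430, 306, 90 and 122, which was 55.2%, 20.8%, 8.06% and 12.4% of the cells of each library. Of the 10 mesenchymal markers (Col1a1, Col3a1, Dcn, Pdgfra and others) summed, the level was 10160 to 20050 CPM (UMI counts scaled to a common total) in mesenchyme and 5.92 to 26.6 CPM in epithelium. Leukocyte, endothelial, glial and smooth muscle lists each summed to at most 3.82 CPM in mesenchyme, the pericyte list to between 8.29 and 22.6 CPM, and Ptprc and Sox10 were at 0 there. Library totals ran from 44547639 to 87228093 UMIs and the median cell of a library from 26293 to 39112 UMIs, and 3 cell barcodes occurred in a pair of libraries.

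Several features of these libraries stood beside every result below. The mesenchymal classes were not shared out alike: Mesenchyme-Ifitm1 held 892, 0, 1 and 0 cells, Mesenchyme-generic 393, 1, 51 and 0, Mesenchyme-proliferative 111, 1, 1 and 0, and Mesenchyme-Ptges 34, 304, 37 and 122. A TNF comparison over all mesenchyme therefore set Mesenchyme-Ptges cells for the most part against cells of other classes, so it is also given within Mesenchyme-Ptges. The 34 wildtype untreated cells of that class were shallow, with a median of 5755 UMIs against 48633, 21965 and 37644.5 in the other libraries. Xist, transcribed from the inactive X chromosome, stood at 705 and 553 CPM in wildtype mesenchyme and at 0.459 and 0 CPM in Tnfr2-/- mesenchyme, so genotype cannot be told apart from the sex or identity of the donor. Tnfrsf1b itself stood at 18.0, 19.2, 7.81 and 13.4 CPM in mesenchyme, and since 3′ tags can come from outside the deleted part, these reads check nothing. With 1 library a group there was no replicate check and no test was made. Intervals are exact 95% intervals for the counts alone and cover neither the spread between cultures nor that between mice.

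Promoter sequences are shown for 3 genes on which the results turn, namely Igf1 and Igfbp5, which were lower with TNF in mesenchyme of both genotypes, and Igfbp4, which differed between genotypes in epithelium. They run from 250 bases before to 50 bases after a RefSeq transcript start on GRCm38.p6, the build to which the files belong (mm10). RefSeq gave 13 such promoters for the 9 genes, and 3′ tags do not tell which start was used. Capitals mark matches, on either strand, to TATAAA (the so-called TATA box), GGGCGG (the GC box, bound by Sp proteins), TGANTCA (for AP-1), TTGCNNAA (for C/EBP) or the NF-kappaB motif. The Igf1 window, chr10:87860861-87861160 on the plus strand, held an AP-1 match at position -37 from the start. The Igfbp5 window, chr1:72874816-72875115 on the minus strand, held overlapping NF-kappaB matches at positions -196 and -195. The Igfbp4 window, chr11:99040994-99041293 on the plus strand, held a TATA box at position -28 and had a GC content of 71.3%, against a median of 52.7% over 32851 promoters.
Igf1: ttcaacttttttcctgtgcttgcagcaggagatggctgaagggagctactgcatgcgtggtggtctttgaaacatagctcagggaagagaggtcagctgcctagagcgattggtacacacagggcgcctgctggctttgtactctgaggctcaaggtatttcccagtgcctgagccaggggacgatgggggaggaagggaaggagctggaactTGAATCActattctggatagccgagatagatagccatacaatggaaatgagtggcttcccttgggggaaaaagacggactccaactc
Igfbp5: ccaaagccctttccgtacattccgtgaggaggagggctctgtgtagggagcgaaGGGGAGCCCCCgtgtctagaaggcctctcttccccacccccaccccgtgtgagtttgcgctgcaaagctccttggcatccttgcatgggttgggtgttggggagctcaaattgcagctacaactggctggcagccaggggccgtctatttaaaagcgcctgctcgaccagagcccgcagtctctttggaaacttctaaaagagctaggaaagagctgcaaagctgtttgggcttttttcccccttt
Igfbp4: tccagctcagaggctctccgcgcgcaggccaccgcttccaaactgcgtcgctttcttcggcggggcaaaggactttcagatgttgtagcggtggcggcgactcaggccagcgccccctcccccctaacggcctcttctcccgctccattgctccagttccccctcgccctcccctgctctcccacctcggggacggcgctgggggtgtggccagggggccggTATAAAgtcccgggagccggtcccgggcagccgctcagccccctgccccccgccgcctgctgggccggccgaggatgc
Of all promoters of this length, 13.6% held the TATA box, 35.7% the GC box, 7.81% the AP-1 motif, 10.8% the C/EBP motif and 8.46% the NF-kappaB motif. A match is a run of letters and not a shown site of binding.

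In GENCODE M21 annotation of the same build, Igf1 spans chr10:87858265-87937042 on the plus strand, so the RefSeq start above lies inside the annotated gene. Igf1r spans chr7:67952827-68233668 on the plus strand, and Igf2 chr7:142650766-142666816 on the minus strand. Igfbp2 (chr1:72824503-72852474, plus strand) and Igfbp5 (chr1:72857932-72874884, minus strand) face each other with their 3′ ends across a gap of 5457 bases that holds 0 annotated genes. The other binding proteins lie at chr11:7206086-7213923 on the minus strand (Igfbp3), chr11:99041244-99054392 on the plus strand (Igfbp4), chr15:102144362-102149511 on the plus strand (Igfbp6) and chr5:77349240-77408041 on the minus strand (Igfbp7). Only Igf2 shared its strand with overlapping annotated genes, Gm49394 and Mir483.

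First, levels in mesenchyme and epithelium were compared within each library. The UMIs of all cells in a compartment were added up and scaled to CPM, and a gene was counted as apart where the compartments differed at least 2-fold on the log2(CPM + 1) scale and at least 1 of them reached 20 CPM. The members tested had higher levels in mesenchyme than in epithelium in every library. These are levels per UMI and not each compartment's share of a library's transcripts. In wildtype untreated cultures, 7 of 7 members tested were higher in mesenchyme, where 25.1% of all genes tested were, and the counts were 6 of 6 beside 21.2% (wildtype TNF), 7 of 7 beside 23.1% (Tnfr2-/- untreated) and 6 of 6 beside 20.9% (Tnfr2-/- TNF). In each library 0 members were lower in mesenchyme, beside 16.4%, 16.2%, 21.0% and 17.5% of all genes. The median log2 difference over the members tested was 8.63, 6.14, 6.50 and 6.09, beside 0.14, 0.10, -0.08 and -0.03 over all genes tested. In the epithelial sums only Igf1r and Igfbp4 ever reached 20 CPM, and neither did in wildtype untreated. A member tested through mesenchyme alone could not be counted as lower there, so these counts add no support to the levels. The classes were themselves clustered from these transcripts, so these values describe them and test nothing.

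**Figure D1:**
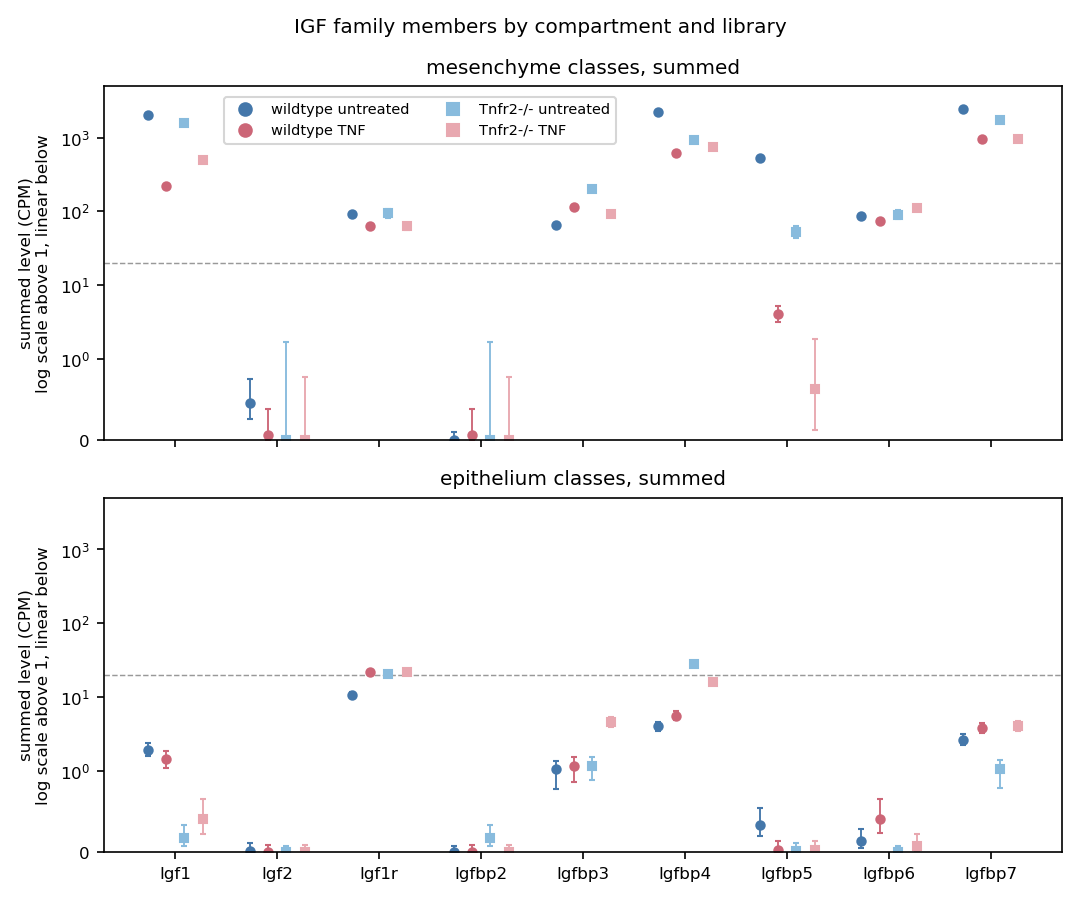
Level of each IGF gene in CPM (log axis above 1, linear below) in mesenchyme (upper panel) and epithelium (lower panel) of the 4 libraries, as summed levels (points) with exact 95% counting intervals (bars) and a dashed line at 20 CPM. Igf1, Igfbp4 and Igfbp7 lie near or above 1000 CPM in untreated mesenchyme and below 30 CPM in every epithelium.

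Of the ligands, Igf1 was the one transcribed. Igf1 stood at 2011, 222, 1561 and 494 CPM in mesenchyme and at 1.93, 1.43, 0.178 and 0.402 CPM in epithelium. Both TNF libraries lay below both untreated libraries in mesenchyme, and each mesenchymal level lay far above every epithelial one. The mesenchymal sums rested on 69981, 3265, 3399 and 2357 UMIs. Igf1 was carried by most mesenchymal cells of each library: after thinning each cell to 5000 UMIs, 97.5%, 56.4%, 98.8% and 80.8% of mesenchymal cells held an Igf1 UMI (99.8%, 91.2%, 100% and 98.4% unthinned). The thinned share in epithelium, given for comparison, was at most 1.03%.

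Igf2, the ligand known for fetal growth and imprinting, was close to undetected. It gave 16, 1, 0 and 0 UMIs in mesenchyme, where a count of 0 allows up to 1.38 CPM in the Tnfr2-/- untreated and 0.629 CPM in the Tnfr2-/- TNF library. A single Igf2 UMI was counted in the epithelium of all libraries.

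The receptor was the member most evenly spread over the compartments. Igf1r stood at 92.4, 63.2, 94.2 and 62.0 CPM in mesenchyme and at 10.8, 21.5, 20.2 and 21.7 CPM in epithelium, so mesenchyme was 8.60, 2.95, 4.67 and 2.86 times higher. Within the epithelium it was highest in enteroendocrine cells, the hormone-secreting cells of the gut lining. Those cells held 53.4, 54.0, 52.9 and 125 CPM of Igf1r, with 33, 31, 18 and 27 cells. The intervals of the first 3 overlapped, while the Tnfr2-/- TNF cells lay above those of wildtype TNF by 2.32 times (1.56 to 3.46). The remaining epithelial classes ranged up to 31.6 CPM.

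Among the binding proteins, Igfbp4 and Igfbp7 gave most of the UMIs, Igfbp3, Igfbp5 and Igfbp6 gave fewer, and Igfbp2 was almost absent. The 3′ method counts a tag per molecule with no length term, so these sums compare tags and are not corrected for how well each 3′ end is captured. Summed over all Igfbp genes examined, mesenchyme held 5318, 1774, 3017 and 1902 CPM. Igfbp7 made up 45.6%, 53.8%, 57.7% and 50.2% of that sum and Igfbp4 41.7%, 35.3%, 31.0% and 39.1%. The summed binding protein tags per Igf1 tag were 2.65, 7.99, 1.93 and 3.85, and so higher in the TNF library of each genotype.

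Igfbp4 encodes the binding protein that PAPP-A cuts. Igfbp4 stood at 2215, 626, 935 and 743 CPM in mesenchyme and at 3.97, 5.56, 28.3 and 15.8 CPM in epithelium. Wildtype untreated mesenchyme lay well above the other libraries, whereas in epithelium both Tnfr2-/- libraries lay above both wildtype ones. Igfbp7, a secreted protein that binds IGFs weakly and is found in matrix, stood at 2423, 955, 1740 and 954 CPM in mesenchyme. Its epithelial level was 2.62, 3.82, 1.05 and 4.05 CPM.

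Igfbp5 binds matrix as well as IGFs and showed the widest range of all members. Its mesenchymal level was 529, 4.08, 52.8 and 0.629 CPM, from 18397, 60, 115 and 3 UMIs. Each library was thus set apart from the others by several-fold, with the lowest value in each genotype under TNF. Unlike Igf1 it was carried by part of the cells: after thinning, 45.0%, 1.34%, 9.30% and 0% of mesenchymal cells held an Igfbp5 UMI (58.8%, 4.25%, 11.1% and 1.64% unthinned). Of the 60 UMIs of wildtype TNF mesenchyme, 18 came from 1 cell of Mesenchyme-generic.

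Igfbp3, the main carrier of IGFs in serum, stood at 65.7, 115, 200 and 92.8 CPM in mesenchyme. Like Igfbp5 it was uneven between cells, since the median cell held 0 CPM in 3 of the libraries and 15.8 CPM in Tnfr2-/- TNF, while the highest cells held 2345 to 4043 CPM. Igfbp6, which prefers IGF2 as its ligand, stood at 85.2, 74.7, 89.6 and 111 CPM and so varied least of the binding proteins. Igfbp2 gave 1 UMI in all mesenchyme and 9 UMIs in the epithelium of the Tnfr2-/- untreated library. Of those 9, 6 were in enteroendocrine cells, at 10.9 CPM.

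Next, the mesenchymal classes were compared. In wildtype untreated cultures Mesenchyme-Ifitm1 held the most Igf1, at 2507 CPM, followed by Mesenchyme-Ptges (1924) and Mesenchyme-proliferative (1811), whose intervals overlapped with that of Mesenchyme-generic of the Tnfr2-/- untreated culture (1870) between them, and wildtype Mesenchyme-generic held 927 CPM. Mesenchyme-Ifitm1 also had the highest Igfbp4, with 2898 CPM beside 1982 in Mesenchyme-proliferative, 1217 in Mesenchyme-Ptges and 739 in Mesenchyme-generic. Igfbp5 was ordered otherwise, at 1223 CPM in Mesenchyme-Ptges, 765 in Mesenchyme-Ifitm1, 271 in Mesenchyme-proliferative and 58.1 in Mesenchyme-generic. The place of Mesenchyme-Ptges rested on its shallow cells, since over its 8 cells of at least 10000 UMIs Igfbp5 stood at 397 CPM (315 to 494), below Mesenchyme-Ifitm1. Igfbp7 was the most even between classes, from 1708 to 2666 CPM. The untreated mesenchyme thus transcribed Igf1, Igfbp4 and Igfbp7 in every class, and Igfbp5 more unequally.

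**Figure D2:**
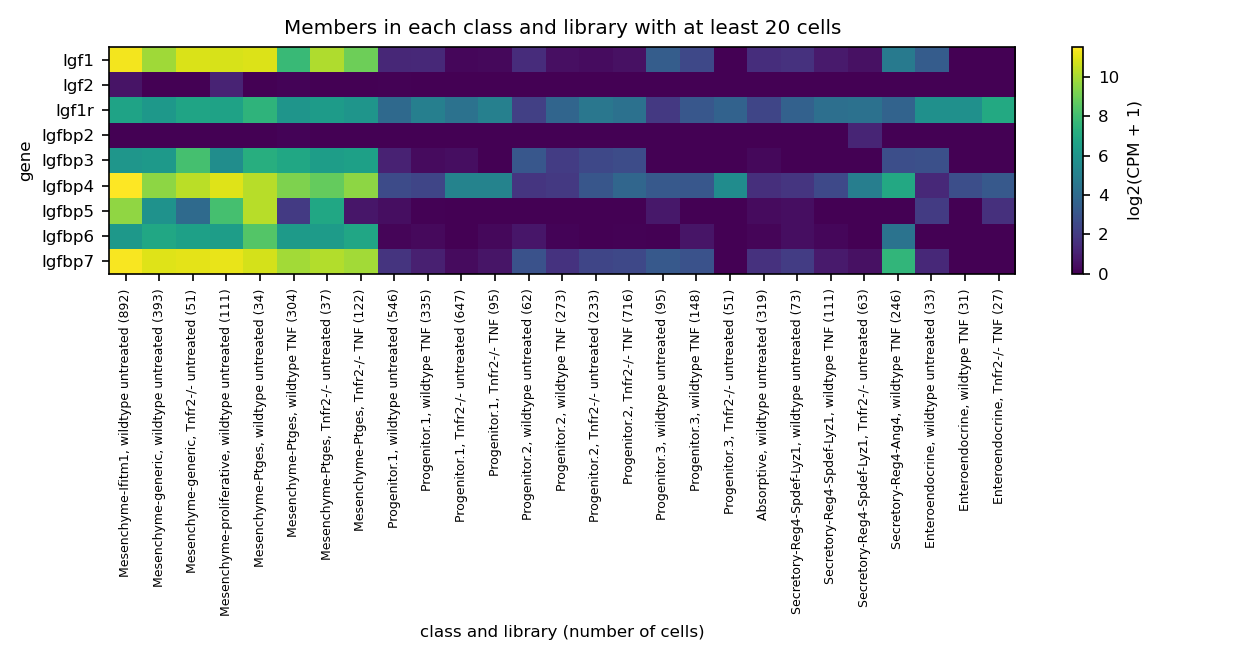
Level of each IGF gene as log2(CPM + 1), shown by colour, in every class and library sum with at least 20 cells. Igf1, Igfbp4 and Igfbp7 are high in all mesenchymal sums, Igfbp5 passes 10 CPM in untreated mesenchymal sums alone, and Igf1r and Igfbp4 have signal in every epithelial sum.

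Across the 27 sums of class and library with at least 20 cells, the genes whose log2(CPM + 1) followed each member most closely were listed among 10113 genes. Igf1 followed Olfml3, Col3a1 and Sparc (Pearson r = 0.99, 0.99 and 0.98), the latter pair being collagen and matrix genes. Igfbp7 followed Bgn, Sparc and Serpinh1, and Igfbp6 followed Fbn1, Mmp19 and Foxf1. Igfbp4 was closest to Cebpb (r = 0.97), Marveld1 and Cebpd, of which the first and last encode C/EBP transcription factors. Igfbp5 was closest to Abca9, Ces1d and Srpx, Igfbp3 to Arhgap23, Sept11 and Col18a1, and Igf1r to Phip, Cbx6 and Nlgn2 (r = 0.94 for each). These sums share libraries and depth and fall into mesenchymal and epithelial sets, so a high r is reached by any gene that follows that split.

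The effect of TNF in mesenchyme was then compared within each genotype. Igf1 and Igfbp5 were lower with TNF in both genotypes, and Igfbp4 and Igfbp7 were at least 2-fold lower in wildtype cultures. In wildtype, 4 of 7 members tested were lower, beside 7.21% of all genes tested, and 0 were higher, beside 6.03%. In Tnfr2-/-, 3 of 7 were lower, beside 6.74%, and 0 were higher, beside 5.71%. The 2 members lower in both, of 7 tested, compare with 3.51% of all genes. Of these, Igfbp5 reached 20 CPM in the untreated libraries alone, so it could not be counted as higher and adds no support to these counts. The median log2 difference over the members tested was -1.34 in wildtype and -0.87 in Tnfr2-/-, beside 0.00 and -0.11 over all genes.

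Igf1, at the levels given above, was lower with TNF by 9.06 times in wildtype (8.75 to 9.39) and by 3.16 times in Tnfr2-/- (3.00 to 3.33). The ligand thus lay lower with TNF in both genotypes, and the wildtype fold was the larger. Igfbp5 was lower by 130 times in wildtype (101 to 170) and by 84.0 times in Tnfr2-/- (28.0 to 413), the latter against 3 UMIs. In wildtype, Igfbp4 was lower by 3.54 times (3.46 to 3.62) and Igfbp7 by 2.54 times (2.49 to 2.58). In Tnfr2-/- these genes differed by -0.33 and -0.87 on the log2 scale, short of 2-fold. Igfbp3 was lower by 2.15 times in Tnfr2-/- (1.88 to 2.46), while in wildtype its log2 difference was 0.80. Within Mesenchyme-Ptges the Igfbp3 difference turned to 0.16 in Tnfr2-/- and to -0.37 in wildtype. Igf1r (-0.54 and -0.59) and Igfbp6 (-0.19 and 0.31) stayed under 2-fold in both genotypes.

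**Figure D3:**
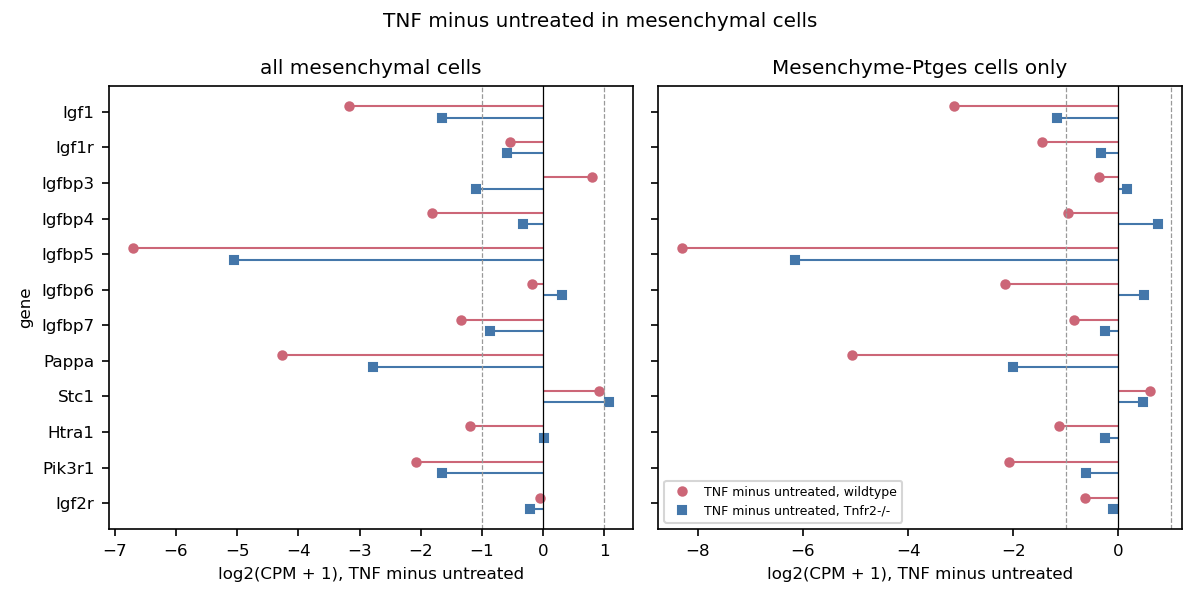
Difference between the TNF and the untreated library on the log2(CPM + 1) scale for 7 IGF genes and 5 pathway genes in each genotype, over all mesenchyme (left) and within Mesenchyme-Ptges (right), with dashed lines at 2-fold. Igf1, Igfbp5 and Pappa lie beyond 2-fold lower in both genotypes and both panels, and of the ligand, receptor and binding protein genes none lies beyond 2-fold higher.

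Within Mesenchyme-Ptges, the mesenchymal class present in all 4 libraries, the same pair of genes was lower with TNF in both genotypes. Igf1 stood at 1924, 219, 1108 and 494 CPM there, and was lower by 8.78 times in wildtype and 2.24 times in Tnfr2-/-. Igfbp5 stood at 1223, 2.87, 115 and 0.629 CPM, and was lower by 426 and 183 times. In all, 4 of 7 members tested were lower in wildtype, beside 11.0% of all genes, 2 of 7 in Tnfr2-/-, beside 3.63%, and 2 of 7 in both, beside 1.39%. In this class too, Igfbp5 was tested through the untreated libraries alone and adds no support to the counts. Igfbp4 and Igfbp7 fell short of 2-fold here in wildtype, at 1217 to 628 CPM and 1708 to 955 CPM, and in Tnfr2-/- Igfbp4 stood at 438 CPM without and 743 CPM with TNF. The other members lower in wildtype were Igf1r (175 to 63.4 CPM) and Igfbp6 (339 to 75.0 CPM). Because the wildtype untreated cells of this class were shallow, the levels were taken again over cells with at least 10000 UMIs, of which there were 8, 285, 31 and 115. Igf1 then stood at 1549, 219, 1089 and 497 CPM and Igfbp5 at 397, 2.89, 103 and 0.634 CPM, the order of libraries being unchanged for both genes. Igfbp6 was still over 2-fold lower in wildtype TNF, at 505 to 74.7 CPM, whereas Igf1r was not, at 103 to 63.4 CPM, so that 3 of 7 members were lower in place of 4. The 11.0% of all genes given above was for all cells of the class, so it is no background for this smaller count.

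Other mesenchymal transcripts moved in the same comparison. Of the mesenchymal markers, 5 of 9 tested were lower with TNF in wildtype and 1 (Vim) was higher, and 6 of 9 were lower in Tnfr2-/-. Col1a1, a fibrillar collagen, stood at 2792, 510, 1986 and 406 CPM and Lum at 698, 65.2, 265 and 31.4 CPM. Dcn, also a fibroblast matrix gene, stood at 2083, 3296, 3733 and 2806 CPM and so was not lower in wildtype TNF. Epithelial markers summed to 304, 238, 164 and 889 CPM in mesenchyme, highest in Tnfr2-/- TNF. The part of cell class or of epithelial RNA in the IGF differences was not tested.

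The genotypes were compared in mesenchyme within each treatment. Without TNF, 3 of 7 members tested differed at least 2-fold, beside 7.79% of all genes, and with TNF 1 of 6, beside 14.5%. Igfbp3 was 3.04 times higher in untreated Tnfr2-/- mesenchyme (2.74 to 3.37), Igfbp4 2.37 times lower (2.27 to 2.48) and Igfbp5 10.0 times lower (8.33 to 12.1). The class mixtures of these libraries differed. Within Mesenchyme-generic, with 393 and 51 cells, Igfbp4 was instead higher in Tnfr2-/-, at 1255 against 739 CPM. Within Mesenchyme-Ptges Igfbp4 was lower in Tnfr2-/-, at 438 against 1217 CPM, and at 424 against 868 CPM in cells of at least 10000 UMIs. Igf1 was also higher in Tnfr2-/- Mesenchyme-generic, at 1870 against 927 CPM, while within Mesenchyme-Ptges it was lower, at 1108 against 1924 CPM. Over all mesenchyme the log2 difference of Igf1 was -0.36. Igfbp3 was higher in Tnfr2-/- Mesenchyme-generic, at 279 against 71.0 CPM, but within Mesenchyme-Ptges it was lower, at 82.9 against 149 CPM. Igfbp5 was lower in Tnfr2-/- in both classes, at 14.5 against 58.1 CPM and at 115 against 1223 CPM, the latter 103 against 397 CPM in cells of at least 10000 UMIs. With TNF, where nearly all mesenchymal cells were Mesenchyme-Ptges in both genotypes, Igf1 was 2.23 times higher in Tnfr2-/- (2.11 to 2.35). The median log2 difference over the members was -0.36 without and 0.12 with TNF, beside -0.09 and -0.20 over all genes.

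In epithelium, few members reached the level needed for a comparison. For TNF, 0 of 1 member tested in wildtype and 0 of 2 in Tnfr2-/- differed at least 2-fold in either direction, beside 3.62% and 13.4% of all genes. For genotype, 1 of 2 differed without TNF, beside 6.01%, and 0 of 1 with TNF, beside 11.4%. The gene that differed was Igfbp4, which was 7.11 times higher in untreated Tnfr2-/- epithelium (6.13 to 8.29), from 1431 against 200 UMIs. It reached 20 CPM in the Tnfr2-/- library alone, so its count of 1 supports nothing beyond the values. Igf1r was just short of the limit, at 2.00 times higher with TNF in wildtype (log2 difference 0.94) and 1.88 times higher in untreated Tnfr2-/-.

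Igfbp4 was followed through the epithelial classes. In Progenitor.1, the largest class, it stood at 5.25, 4.27, 34.4 and 34.1 CPM, from 145, 78, 1262 and 175 UMIs. Both Tnfr2-/- libraries thus lay above both wildtype libraries. Within each genotype the counting intervals of the untreated and the TNF library overlapped. The Tnfr2-/- level was 6.55 times the wildtype level without TNF (5.51 to 7.83) and 7.99 times with TNF (6.09 to 10.6). In this class 1 of 1 member tested was higher in Tnfr2-/- without TNF, beside 1.15% of all genes, 1 of 2 with TNF, beside 1.29%, and 1 of 1 in both treatments, beside 0.367%. Igfbp4 reached 20 CPM through the Tnfr2-/- libraries alone, so these counts describe the same difference and give it no support. After thinning to 5000 UMIs, 3.85%, 1.19%, 13.5% and 14.9% of Progenitor.1 cells held an Igfbp4 UMI (17.9%, 13.4%, 41.7% and 47.4% unthinned), at median depths of 43626, 44064, 46629 and 42680 UMIs. At this depth the share largely restates the level and does not show separately how many cells express the gene.

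The other epithelial classes held the same order where they had enough cells. In Progenitor.2, Igfbp4 stood at 2.38, 2.76, 7.37 and 12.7 CPM, the intervals of the untreated pair overlapping. Within Tnfr2-/- the TNF library lay above the untreated one in this class, with intervals of 11.6 to 14.0 and 5.77 to 9.26 CPM. In Progenitor.3 it stood at 8.18, 7.60 and 47.1 CPM in the first 3 libraries, 5.76 times higher in untreated Tnfr2-/- (2.79 to 12.6). In Secretory-Reg4-Spdef-Lyz1, a secretory class, it stood at 2.47, 4.80 and 28.9 CPM, 11.7 times higher (5.39 to 30.2). Enteroendocrine cells held 1 to 5 Igfbp4 UMIs a library, too few for a comparison. The lower Igfbp4 level of all epithelium in Tnfr2-/- TNF than in Tnfr2-/- untreated (15.8 against 28.3 CPM) stood beside a shift from Progenitor.1 (647 and 95 cells) to Progenitor.2 (233 and 716 cells).

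**Figure D4:**
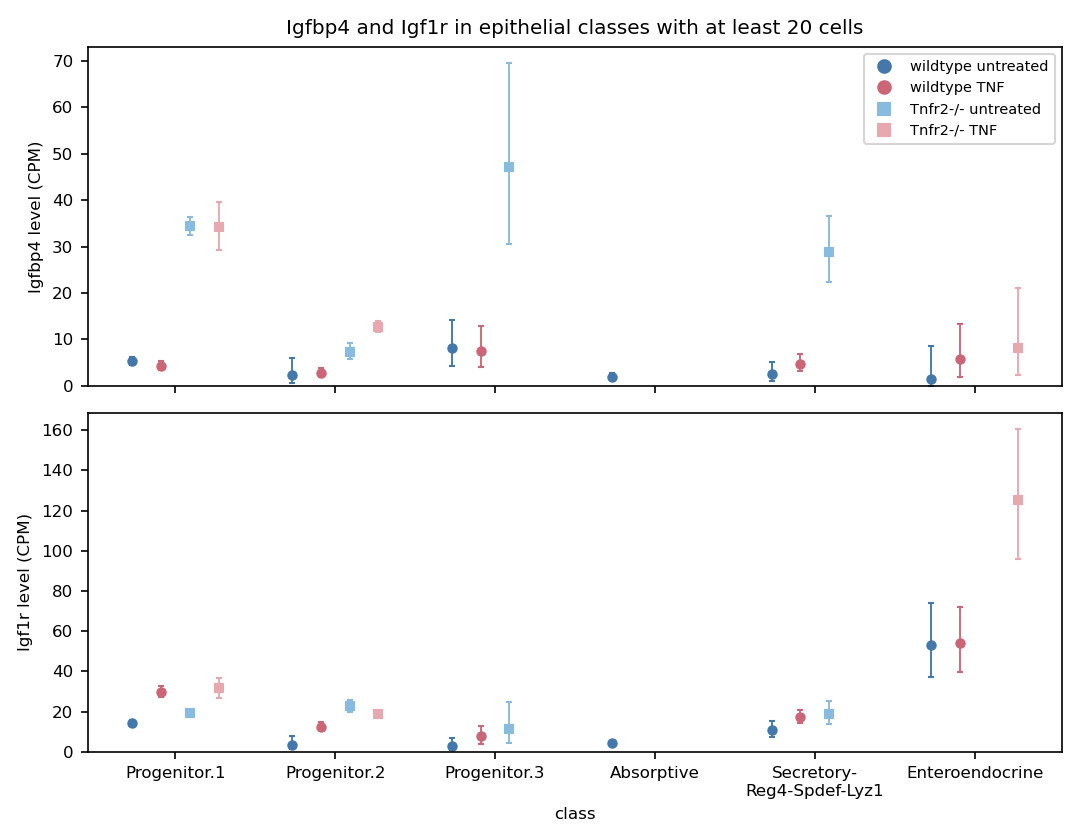
Igfbp4 and Igf1r levels in CPM with exact 95% intervals by epithelial class and library, for sums of at least 20 cells. Igfbp4 is higher in the Tnfr2-/- libraries than in the wildtype ones in Progenitor.1 and Progenitor.2, and Igf1r is highest in enteroendocrine cells.

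Igf1r was also followed by class. In Progenitor.1 it stood at 14.4, 29.8, 19.4 and 31.6 CPM, so both TNF libraries lay above both untreated ones. In Progenitor.2 it stood at 3.57, 12.5, 22.6 and 18.8 CPM, the first from 6 UMIs. The absorptive cells of the wildtype untreated culture held 4.24 CPM. Igfbp3 and Igfbp7 were weak in epithelium, with Progenitor.2 at 7.74, 3.15, 4.64 and 5.39 CPM for Igfbp3 and at 6.55, 2.21, 4.34 and 4.65 CPM for Igfbp7.

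Mesenchymal RNA can reach epithelial droplets, so each member's epithelial level was expressed as a percent of its mesenchymal level in the same library. Over the mesenchymal markers the median was 0.0778%, 0.282%, 0.0262% and 0.0735%, and the highest marker reached 0.218%, 0.631%, 0.0926% and 0.143%. Igf1 (0.0958%, 0.643%, 0.0114% and 0.0814%) lay just above the highest marker in wildtype TNF and inside the range of the markers elsewhere. Whether its epithelial UMIs came from mesenchymal RNA was not tested. Igfbp4 was inside that range in wildtype untreated cells, at 0.179%, and above it elsewhere, at 0.889%, 3.02% and 2.12%. Igfbp3 (1.57%, 1.01%, 0.583% and 4.93%) and Igf1r (11.6%, 34.0%, 21.4% and 35.0%) lay above the highest marker in every library. Igfbp7 lay above it in Tnfr2-/- TNF alone, at 0.424%. Igfbp5 (0.0639%, 0.593% and 0.0374% in the first 3 libraries) and Igfbp6 (0.163%, 0.551%, 0% and 0.0678%) did not pass the highest marker in any of these libraries. In Tnfr2-/- TNF, Igfbp5 stood at 0.0251 CPM in epithelium and 0.629 CPM in mesenchyme. Its percent there would lie above the highest marker but rests on too few UMIs to be placed.

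**Figure D5:**
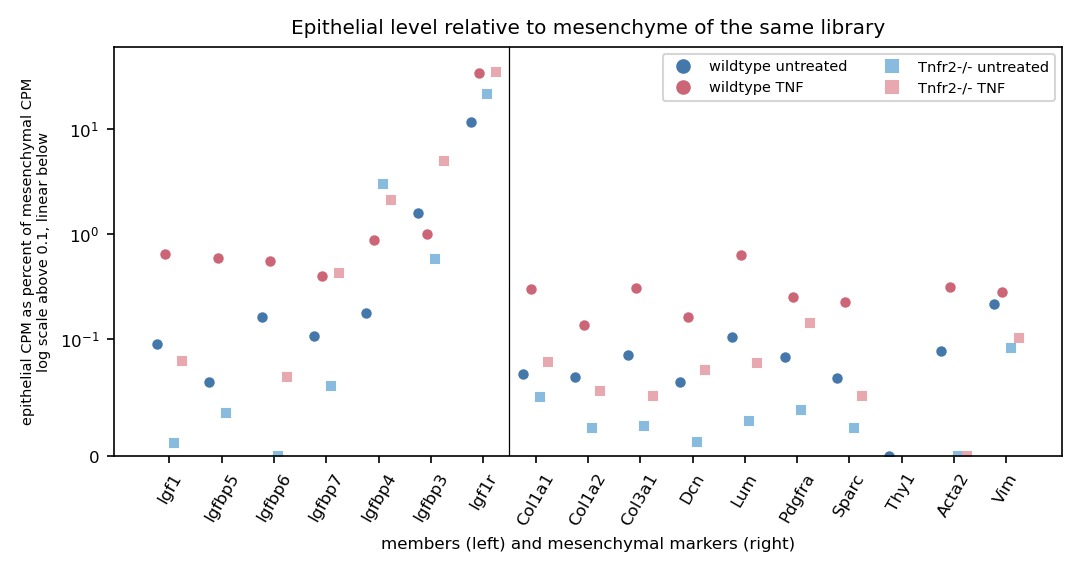
Epithelial level as a percent of mesenchymal level in the same library (log axis above 0.1, linear below) for 7 IGF genes (left of the line) and the mesenchymal markers (right), with a point for each library. Igf1r lies above 10% in every library, and Igfbp4 lies above the markers in both Tnfr2-/- libraries.

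The Secretory-Reg4-Ang4 class, found in wildtype TNF alone with 246 cells at a median of 1957.5 UMIs, stood apart. It held 188 CPM of Igfbp7, 124 of Igfbp4, 25.5 of Igf1 and 19.6 of Igfbp6, which were 19.7%, 19.7%, 11.5% and 26.3% of the mesenchymal levels. The mesenchymal markers of these cells ran from 4.28% to 42.1% of their mesenchymal levels, with a median of 13.9%, and summed to 1126 CPM beside 11280 CPM of epithelial markers. The members' shares thus lay inside the range of the markers. Without this class, wildtype TNF epithelium held 4.09 CPM of Igfbp4, 1.52 of Igfbp7 and 1.13 of Igf1.

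The wider pathway was taken as 26 further genes, which covered other receptors, signalling proteins, proteases and their inhibitors. Of those tested, 9 of 12, 7 of 11, 10 of 11 and 7 of 14 were higher in mesenchyme than in epithelium, beside 25.1%, 21.2%, 23.1% and 20.9% of all genes. The genes lower in mesenchyme were 1 of 12 and 1 of 11 in wildtype (Stc2 in both), 0 of 11 in Tnfr2-/- untreated and 3 of 14 in Tnfr2-/- TNF (Irs2, Foxo1 and Stc2), beside 16.4%, 16.2%, 21.0% and 17.5%. In wildtype untreated, Pappa, Htra1 and Stc1 reached 20 CPM in mesenchyme alone and Stc2 in epithelium alone. Genes tested through 1 compartment could be counted in 1 direction only, so these counts add no support to the levels. In mesenchyme 11 of the 26 pathway genes were tested for TNF, of which 3 were lower in wildtype and 0 higher, beside 7.21% and 6.03% of all genes, and 2 were lower and 1 higher in Tnfr2-/-, beside 6.74% and 5.71%. In wildtype Pappa reached 20 CPM in the untreated library alone, so it could not be counted as higher and adds no support to the wildtype count. Pappa, the protease for IGFBP4, stood at 324, 15.8, 232 and 32.9 CPM and was lower by 20.5 times in wildtype (18.0 to 23.4) and 7.06 times in Tnfr2-/- (5.89 to 8.50). Both TNF libraries lay below both untreated ones, as for Igf1. Pik3r1, a regulatory subunit of PI3-kinase, stood at 246, 57.2, 210 and 66.0 CPM and was lower by 4.30 and 3.18 times. Htra1, a secreted protease that can cut binding proteins, was lower in wildtype by 2.31 times (182 to 78.8 CPM). Stc1, which blocks PAPP-A, stood at 60.8, 115, 92.8 and 197 CPM and passed 2-fold in Tnfr2-/- at 2.12 times higher.

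Within Mesenchyme-Ptges the Tnfr2-/- differences of Stc1 (142 to 197 CPM) and Pik3r1 (102 to 66 CPM) were under 2-fold. Pappa was lower with TNF within Mesenchyme-Ptges too, at 560.5, 15.7, 136 and 32.9 CPM, and at 431.5, 15.4, 131 and 33.2 CPM in cells with at least 10000 UMIs. Between genotypes in mesenchyme, 0 of 11 pathway genes tested differed without TNF, beside 7.79% of all genes, and 1 of 11 with TNF, beside 14.5%, so the count did not pass the background. The gene was Pappa, at 2.08 times higher in Tnfr2-/- (1.69 to 2.55). It reached 20 CPM in the Tnfr2-/- library alone, so it could not be counted as lower. In epithelium 0 of 6 differed between genotypes without TNF, beside 6.01%, and 1 of 9 with TNF, a share near the 11.4% of all genes. That gene was Igf2r, the receptor that carries IGF2 to lysosomes, 2.48 times higher in Tnfr2-/- (2.33 to 2.63). Over the 4 libraries Igf2r stood at 32.3, 36.8, 56.6 and 91.2 CPM in epithelium and at 190, 183, 258 and 222 CPM in mesenchyme. With TNF, 0 of 7 pathway genes tested differed in wildtype epithelium, beside 3.62% of all genes, and 2 of 9 in Tnfr2-/- epithelium, beside 13.4%. Both were higher, Foxo3, a transcription factor that AKT holds out of the nucleus, by 2.25 times and Stc2 by 2.10 times. These genes stood at 16.1 and 19.7 CPM in Tnfr2-/- untreated epithelium and so reached 20 CPM through the TNF library alone. Neither could be counted as lower, and their count adds no support to the values. Pappa2, a protease for IGFBP3 and IGFBP5, stood at 433, 233 and 86.1 CPM in enteroendocrine cells of the wildtype untreated, wildtype TNF and Tnfr2-/- TNF libraries. In mesenchyme it stood at 0.259, 0.612, 0.459 and 6.92 CPM, the last from 33 UMIs. Igfbp1, the liver binding protein, gave 0 UMIs in every library.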

How the data were processed

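Per the labels' processing notes, the authors made the counts with Cell Ranger 5.0.0 on mm10. The deposited matrix holds whole-number UMI counts per gene and cell, not normalized. The study's methods describe leaving out mesenchymal clusters and epithelial-mesenchymal doublets, but the deposited table still holds mesenchymal cells, so whether doublets were removed from it is not given in the sources used here. No doublet caller was run, and cells with both marker lists were left out in an alternative. Deposited classes were used as given.

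UMI counts were summed over the cells of each class or compartment and library and divided by their total (CPM). Differences are on the log2(CPM + 1) scale over all genes that reached 20 CPM in at least 1 side, and at least 2-fold counted as apart. Classes needed 20 cells. Shares of cells were taken after thinning to 5000 UMIs. Poisson, Clopper-Pearson and conditional binomial intervals at 95% cover counting error only. A count of 0 allows 3 counts. With 1 library a group, no test was made.

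Named genes were the 9 members, pathway genes that were apart or reached 20 CPM, the 3 genes most correlated with each member, Tnfrsf1b, Xist and fixed cell type markers. Members and lists were chosen with earlier results of these data known. Counting was tested on simulated data. Alternatives were other pseudocounts, TMM and median-of-ratios scaling, no minimum, means over cells, deep cells, cells without mixed markers and single classes. Software was Python 3.11.15, numpy 2.4.6, scipy 1.17.1, pandas 2.3.3, R 4.3.3 and edgeR 4.0.16 (TMM factors alone).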

Additional observations from a re-analysis of the deposited data

Results flagged for a closer look

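Some differences in mesenchyme had opposite signs in the groups compared, on the log2(CPM + 1) scale, and the difference between the groups was not tested, since each had 1 library. For TNF minus untreated, Igfbp3 was at 0.80 in wildtype and -1.10 in Tnfr2-/-, and Igfbp6 at -0.19 and 0.31. For Tnfr2-/- minus wildtype, the untreated and TNF values were -0.36 and 1.15 for Igf1, 1.59 and -0.31 for Igfbp3, and -1.24 and 0.25 for Igfbp4. Some of these signs moved with the class. Within Mesenchyme-generic the untreated values were 1.01 for Igf1 and 0.76 for Igfbp4, while within Mesenchyme-Ptges both stayed negative. Within Mesenchyme-Ptges the TNF value of Igfbp3 was -0.37 in wildtype and 0.16 in Tnfr2-/-.

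The 35 cells that the annotation puts in no class (31 of wildtype untreated, 4 of Tnfr2-/- untreated) entered no comparison, and their IGF transcripts lay above the limit that a count of 0 allows. They held 571 CPM of Igf1, 31.0 of Igf1r, 4.49 of Igfbp3, 651 of Igfbp4, 131 of Igfbp5, 13.5 of Igfbp6 and 683 of Igfbp7.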

How the results depend on the processing

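The counts of members apart kept within 1.5 times of the reported count in 122 recomputations and did not in 9. For mesenchyme, genotype with TNF gave 2 members with no minimum level. For epithelium, TNF in wildtype gave 2 as a mean over cells and 1 within Progenitor.1, TNF in Tnfr2-/- gave 2 with no minimum, genotype without TNF gave 2 with no minimum, and genotype with TNF gave 2 with no minimum and 1 each as a mean over cells, within Progenitor.1 and within Enteroendocrine. Within Progenitor.1, 2.46% of all genes were apart for TNF in wildtype and 3.33% for genotype with TNF. Within Enteroendocrine, 16.6% were apart for genotype with TNF. The counts at the other settings have no share of all genes beside them here and are not read as results. Of the differences of at least 2-fold, those that turned direction were Igfbp3 for TNF in Tnfr2-/- mesenchyme, at 0.16 with classes weighted equally or within Mesenchyme-Ptges and 0.44 in its cells of at least 10000 UMIs, Igfbp4 for genotype without TNF, at 0.76 within Mesenchyme-generic, and Igfbp3 for genotype without TNF, at -0.84 within Mesenchyme-Ptges and -0.71 in its deep cells. Smaller differences turned too, among them Igfbp3 for TNF in wildtype (-0.37) and Igfbp4 for TNF in Tnfr2-/- (0.76) within Mesenchyme-Ptges, and Igf1 for genotype without TNF (1.01) within Mesenchyme-generic. The cause was not tested. The deep cells of Mesenchyme-Ptges were an alternative chosen after seeing the data. Over all alternatives Igf1 with TNF ran from -3.23 to -2.82 (wildtype) and -1.68 to -1.13 (Tnfr2-/-), and Igfbp5 from -8.30 to -5.26 and -6.18 to -2.56. Other scalings moved the median of all genes by -0.29 to 0.20 over 12 comparisons, by over 0.1 in 18 of 24 cases. No paired analysis was possible because each group had 1 library. Depth limits Igf2 and Igfbp2. The 90 mesenchymal cells of Tnfr2-/- untreated and the 34 Mesenchyme-Ptges cells of wildtype untreated limit the values that rest on them.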
